A study of Mus musculus with 4 samples.

Results

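The genes described here are those that set a pair of bone marrow fractions apart from another pair across the usual order of blood cell differentiation. On 1 side stand long-term haematopoietic stem cells (LT-HSC) and progenitors, and on the other short-term stem cells (ST-HSC) and lineage-positive (Lin+) cells. A gene was taken when both LT-HSC and progenitors lay at least 2-fold above both ST-HSC and Lin+, or at least 2-fold below both. Of 20284 named genes on the array, 11673 were measured, meaning that both fractions of at least 1 side gave signal well above background. Of these, 75 (0.643%) were higher in LT-HSC and progenitors and 81 (0.694%) were lower, so 156 genes (1.34%) met the rule in either direction.

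All fractions were sorted from the marrow of female C57BL6 mice aged 8 weeks, and each was read on 1 single-colour Agilent array from 10 ng of total RNA. LT-HSC were CD34-negative, c-Kit-positive, Sca-1-positive and lineage-negative, and are called CD34-KSL in the labels. The progenitor sample is labelled ckit+Lineage-, while a protocol shared by the samples describes progenitors as Sca-1-negative and also mentions lineage-positive cells, so the gate is not settled. ST-HSC carried the same markers as LT-HSC with CD34 present (CD34+KSL), and Lin+ cells were all cells with lineage markers, a mixture of mature cell types. The labels do not say how many mice were pooled. The mRNA of Kit, which encodes the sorted receptor c-Kit, stood at 5.63 in LT-HSC and 4.42 in progenitors, against 5.0 in ST-HSC and 1.67 in Lin+ cells. These and all later levels are log2 signals relative to the 75th percentile of the same array. Cd34 mRNA stood at 7.34 in LT-HSC and 7.51 in progenitors, against 8.53 in ST-HSC and 3.26 in Lin+ cells. Ly6a, which encodes Sca-1, stood at 4.52 in LT-HSC and 2.28 in progenitors, against 3.12 in ST-HSC and 4.51 in Lin+ cells.

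With 1 array per fraction, and different fractions on each side, the differences below have no replicates behind them and none was tested. Errors given as ± are the spot error that Feature Extraction assigns, about 0.20 for a difference, and they leave out variation between mice and sorts. The smallest of a gene's 4 differences across the pairs is called its margin, and a margin of 1 is 2-fold. The values that chose the genes are the values described, so their size and direction are a description. All 4 arrays lay on 1 slide, with LT-HSC and progenitors at positions 1 and 3 and ST-HSC and Lin+ at positions 2 and 4, so position and pair cannot be told apart. From 40.9% to 45.9% of probes per array were well above background, and the scaling percentile lay at 192 intensity units in LT-HSC and 137 in progenitors, against 217 in ST-HSC and 230 in Lin+ cells. In whole fractions, more cells of a type and more RNA per cell cannot be told apart.

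Megakaryocytes are the large marrow cells that shed platelets. They load granules with clotting factors and chemokines, coat their surface with adhesion receptors such as the glycoprotein Ib-IX-V complex and integrin αIIbβ3, and use GATA, ETS and NF-E2 transcription factors to do so. Long-term stem cells in mice are known to share several of these transcripts, von Willebrand factor among them. Long-term stem cells are also known for rarely dividing, while genes of mitosis are transcribed mainly in cells that pass through G2 and M phase, often from promoters with a CCAAT box and a cell cycle genes homology region (CHR).

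The promoters below are shown because they carry the motifs counted for the gene groups further on. They are RefSeq windows of GRCm38.p6, from 250 bases before to 50 bases after the start of transcription, printed 5′ to 3′ on the gene's strand. Capitals in Pf4 and Gp5 mark GATA motifs (AGATAA or TGATAA) and ETS motifs (GGAAGT), and capitals in Kif11, Top2a and Kif4 mark CCAAT and CHR motifs (TTTGAA or TTCGAA), each on either strand. No matches overlapped. Pf4 lies at chr5:90772185-90772484 (+), Gp5 at chr16:30310732-30311031 (-), Kif11 at chr19:37376132-37376431 (+), Top2a at chr11:99024140-99024439 (-) and Kif4 at chrX:100625815-100626114 (+).
Pf4: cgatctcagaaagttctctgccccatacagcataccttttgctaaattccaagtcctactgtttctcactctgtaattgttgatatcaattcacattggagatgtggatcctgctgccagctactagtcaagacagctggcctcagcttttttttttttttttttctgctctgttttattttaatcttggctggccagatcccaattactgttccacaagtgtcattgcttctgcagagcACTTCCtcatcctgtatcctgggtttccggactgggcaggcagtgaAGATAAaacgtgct
Gp5: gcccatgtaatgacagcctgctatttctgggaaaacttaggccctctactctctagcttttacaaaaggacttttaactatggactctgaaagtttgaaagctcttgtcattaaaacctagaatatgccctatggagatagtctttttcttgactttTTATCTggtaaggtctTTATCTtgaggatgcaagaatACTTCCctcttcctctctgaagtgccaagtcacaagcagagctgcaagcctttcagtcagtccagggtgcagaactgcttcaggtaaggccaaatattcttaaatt
Kif11: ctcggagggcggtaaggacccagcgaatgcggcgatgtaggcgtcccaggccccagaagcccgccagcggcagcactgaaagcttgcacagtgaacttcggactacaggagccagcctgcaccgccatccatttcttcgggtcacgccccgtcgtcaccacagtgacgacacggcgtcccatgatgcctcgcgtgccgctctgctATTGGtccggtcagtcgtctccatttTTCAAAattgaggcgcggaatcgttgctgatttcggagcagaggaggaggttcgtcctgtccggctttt
Top2a: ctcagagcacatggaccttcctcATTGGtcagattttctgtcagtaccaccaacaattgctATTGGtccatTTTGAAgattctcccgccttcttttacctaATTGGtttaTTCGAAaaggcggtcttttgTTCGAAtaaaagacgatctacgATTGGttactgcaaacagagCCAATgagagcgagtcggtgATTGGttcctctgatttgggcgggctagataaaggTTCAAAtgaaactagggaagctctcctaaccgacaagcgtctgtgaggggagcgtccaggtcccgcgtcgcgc
Kif4: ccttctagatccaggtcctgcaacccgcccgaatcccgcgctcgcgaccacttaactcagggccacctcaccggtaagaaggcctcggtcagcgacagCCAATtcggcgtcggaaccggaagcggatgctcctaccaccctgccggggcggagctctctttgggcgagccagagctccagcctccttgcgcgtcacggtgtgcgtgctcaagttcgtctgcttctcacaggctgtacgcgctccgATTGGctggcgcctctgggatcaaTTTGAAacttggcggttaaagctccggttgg

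Genes of platelets were prominent among those higher in LT-HSC and progenitors. Of 93 measured genes in 4 lists of megakaryocyte and platelet genes, 17 (18.3%) were higher by the rule and 0 were lower, beside 0.643% and 0.694% of all measured genes. The median pair difference of these 93 genes, that is the mean of LT-HSC and progenitors minus the mean of ST-HSC and Lin+, was 0.59 on the log2 scale, beside 0.20 for all measured genes. The 17 genes were 7 surface receptors and adhesion proteins, 7 granule and secreted proteins, and 3 genes of signalling and the cytoskeleton.

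**Figure D1:**
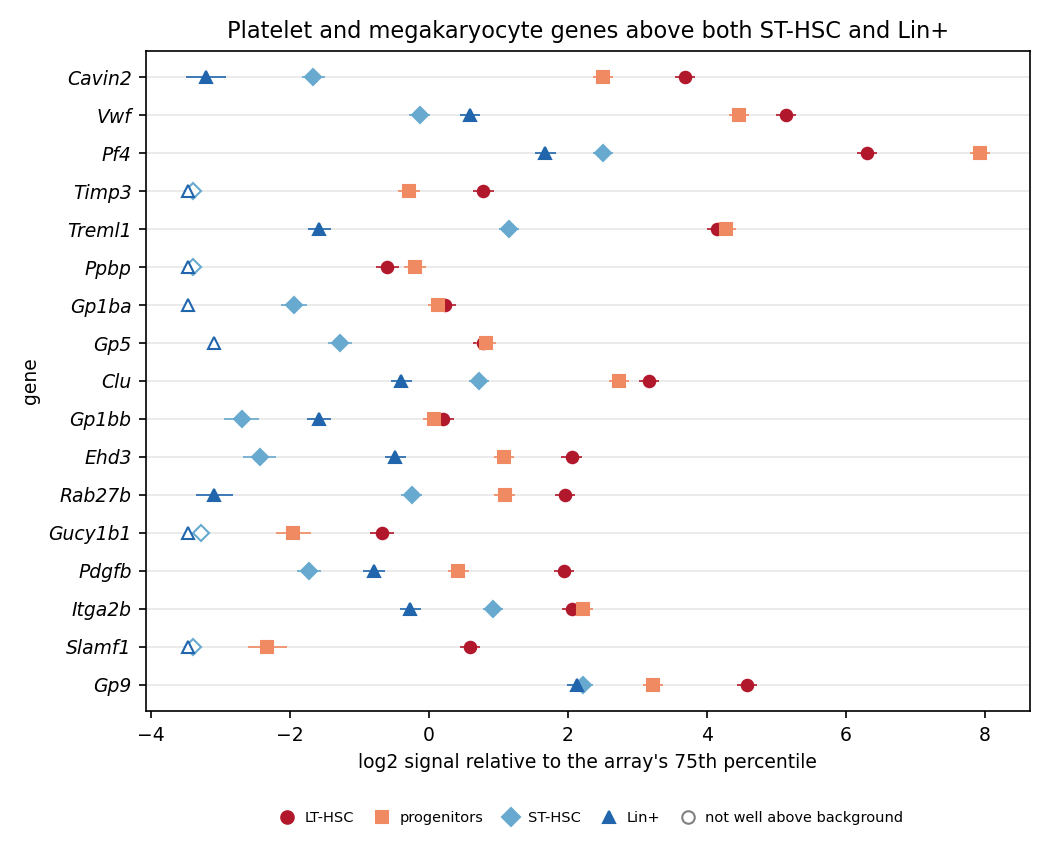
Log2 signal relative to the array's 75th percentile (horizontal axis) of the 17 megakaryocyte and platelet genes higher in LT-HSC and progenitors, ordered by margin. Bars are the spot error of 1 array, and open symbols, drawn without bars, were not well above background. In every row the circle and the square lie at least 1 unit to the right of the diamond and the triangle, and the gap ranges from 1.01 for Gp9 to 4.17 for Cavin2.

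Pf4, which encodes the platelet chemokine platelet factor 4, stood at 6.30 in LT-HSC and 7.92 in progenitors, against 2.50 in ST-HSC and 1.68 in Lin+ cells. Its margin was 3.80 ± 0.20, the gap between the lower of the high pair and the higher of the low pair. Ppbp, the gene beside Pf4 on chromosome 5 and another platelet chemokine, stood at -0.60 in LT-HSC and -0.20 in progenitors and was well above background in neither ST-HSC nor Lin+ cells, so it was at least 6.91-fold higher. With normexp, another background correction, its smallest difference was 2.36-fold. Progenitors lay above LT-HSC for both chemokine genes, for Ppbp by less than 2 spot errors.

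Vwf encodes von Willebrand factor, the granule protein that tethers platelets to the vessel wall. It stood at 5.14 in LT-HSC and 4.45 in progenitors, against -0.13 in ST-HSC and 0.59 in Lin+ cells, a margin of 3.86 ± 0.21 (14.5-fold). Unlike Pf4, it was higher in LT-HSC than in progenitors. Clu, which encodes the secreted chaperone clusterin, stood at 3.16 in LT-HSC and 2.74 in progenitors, against 0.73 in ST-HSC and -0.40 in Lin+ cells (margin 2.01 ± 0.20). Timp3, an inhibitor of matrix metalloproteinases, stood at 0.78 in LT-HSC and -0.28 in progenitors and was not well above background in either ST-HSC or Lin+ cells, so it was at least 8.60-fold higher, while normexp gave a smallest difference of 2.99-fold. The growth factor gene Pdgfb stood at 1.94 in LT-HSC and 0.42 in progenitors, against -1.73 in ST-HSC and -0.79 in Lin+ cells (margin 1.21 ± 0.21). Rab27b, a GTPase of granule secretion, stood at 1.95 in LT-HSC and 1.09 in progenitors, against -0.25 in ST-HSC and -3.09 in Lin+ cells (margin 1.33 ± 0.21). A second measured probe of Rab27b did not meet the rule.

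Other granule genes had different orders. F13a1, the transglutaminase subunit shared by platelets and monocytes, stood at -1.96 in LT-HSC and 5.96 in progenitors, against 4.50 in ST-HSC and 6.07 in Lin+ cells. Thbs1, which encodes thrombospondin 1, stood at 1.13 in LT-HSC and 1.33 in progenitors, against 0.43 in ST-HSC and 5.33 in Lin+ cells. Srgn, the proteoglycan core of many blood cell granules, lay between 7.90 and 8.16 in all fractions.

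All 4 genes of the glycoprotein Ib-IX-V complex, the platelet receptor for von Willebrand factor, met the rule as scaled here, and Gp9 lost the call under every other scaling. Gp1ba, its ligand-binding chain, stood at 0.24 in LT-HSC and 0.13 in progenitors, against -1.95 in ST-HSC and a value not well above background in Lin+ cells (margin 2.08 ± 0.24). Gp5 stood at 0.78 in LT-HSC and 0.82 in progenitors, against -1.28 in ST-HSC, and was not well above background in Lin+ cells (margin 2.06 ± 0.23). Gp1bb stood at 0.21 in LT-HSC and 0.07 in progenitors, against -2.69 in ST-HSC and -1.58 in Lin+ cells (margin 1.65 ± 0.23). In these 3 genes LT-HSC and progenitors lay within 0.14 of each other, less than the error of the difference. Gp9 stood at 4.57 in LT-HSC and 3.23 in progenitors, against 2.21 in ST-HSC and 2.12 in Lin+ cells, and its margin of 1.01 ± 0.20 lay within its error of the threshold. Under 5 other scalings of the arrays it ranged from 0.39 to 0.85, and it was 0.86 with normexp. Gp1bb fell short of the rule, at 0.95, when its probes were averaged.

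Treml1 encodes a receptor stored in platelet granules and brought to the surface on activation. It stood at 4.14 in LT-HSC and 4.27 in progenitors, against 1.15 in ST-HSC and -1.57 in Lin+ cells, a margin of 2.99 ± 0.20 (7.96-fold). Itga2b, the αIIb chain of the fibrinogen receptor, stood at 2.06 in LT-HSC and 2.22 in progenitors, against 0.92 in ST-HSC and -0.27 in Lin+ cells (margin 1.14 ± 0.21). Its partner chain Itgb3 did not follow: it stood at 3.17 in LT-HSC and 3.13 in progenitors, against 0.93 in ST-HSC and 3.01 in Lin+ cells. Slamf1, the stem cell antigen CD150, stood at 0.59 in LT-HSC and -2.32 in progenitors, and was well above background in neither ST-HSC nor Lin+ cells, so it was at least 2.10-fold higher as scaled here. Its call was lost under all 5 other scalings, with smallest differences of 0.44 to 0.97, and with normexp, at 0.48.

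Among signalling and cytoskeletal genes, Cavin2 had the largest margin of all 156 genes. This caveola coat gene, also known from platelets as a phosphatidylserine-binding protein, stood at 3.68 in LT-HSC and 2.51 in progenitors, against -1.66 in ST-HSC and -3.21 in Lin+ cells (margin 4.17 ± 0.22, 18.0-fold, or 9.16-fold with normexp). Ehd3, a membrane-shaping ATPase, stood at 2.05 in LT-HSC and 1.08 in progenitors, against -2.43 in ST-HSC and -0.48 in Lin+ cells (margin 1.57 ± 0.21). Gucy1b1, a subunit of the nitric oxide receptor, stood at -0.67 in LT-HSC and -1.95 in progenitors and was well above background in neither ST-HSC nor Lin+ cells, so it was at least 2.50-fold higher, but fell short of the rule with spike-in scaling (0.70) and normexp (0.64). Cavin1 and Cavin3, partners of Cavin2 in the caveola coat, did not meet the rule. Cavin1 stood at 5.97 in LT-HSC and 3.89 in progenitors, against 3.95 in ST-HSC and -0.73 in Lin+ cells. Cavin3 stood at 2.76 in LT-HSC and 0.04 in progenitors, against 0.85 in ST-HSC, and was not well above background in Lin+ cells. Cav1, the caveolin itself, was not well above background on any array.

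Of the 17 platelet-list genes, 10 met the rule under all 5 other scalings and 12 with normexp. Gp9, Slamf1 and Pdgfb were lost under at least 1 scaling to array signals, and Ehd3, Itga2b, Gucy1b1 and Rab27b under scaling to the spike-in controls alone. Normexp lost Gp9, Slamf1, Pdgfb, Gucy1b1 and Rab27b.

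Of 14 measured transcription factors of the lineage, 0 met the rule in either direction. At the shares of all measured genes, a list of this size would hold fewer than 1 such gene. Their median pair difference was 0.42, beside 0.20 for all measured genes. Gata1 stood at 4.83 in LT-HSC and 6.15 in progenitors, against 2.69 in ST-HSC and 5.75 in Lin+ cells. Gfi1b, a repressor of the same lineages, stood at 5.01 in LT-HSC and 5.59 in progenitors, against 3.33 in ST-HSC and 4.57 in Lin+ cells. In both genes ST-HSC was lowest, while Lin+ cells lay between LT-HSC and progenitors for Gata1 and below both for Gfi1b. Gata2, active in stem cells and early megakaryocyte progenitors, stood at 5.56 in LT-HSC and 4.49 in progenitors, against 3.83 in ST-HSC and 1.32 in Lin+ cells, with both of the first above both of the others by a margin of 0.66. Nfe2, required for platelet release, lay between 6.18 and 6.71 in all fractions.

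Several genes that mark platelets were not well above background on any array. They included Tubb1, the platelet β-tubulin, Gp6, the collagen receptor, P2ry12, the ADP receptor, and Mpig6b, an inhibitory receptor. Of 34 listed receptors and adhesion proteins, 27 were well above background in LT-HSC and 26 in progenitors, against 24 in ST-HSC and 22 in Lin+ cells. The summed signal of those above background, on the log2 scale, was 8.60 in LT-HSC and 7.96 in progenitors, against 7.27 in ST-HSC and 7.95 in Lin+ cells. The sum in progenitors thus matched that in Lin+ cells, while the 7 genes above did not. Whether platelets or megakaryocytes carried along in the sorts contribute was not tested.

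Single comparisons of the platelet genes are given as a description. The rule makes its 17 genes higher by 2-fold or more in each of them. In LT-HSC against ST-HSC, 42 of the 93 measured genes were higher by 2-fold or more and 7 were lower, beside 6.37% and 5.52% of all measured genes. In progenitors against ST-HSC, 32 were higher and 12 lower, beside 8.47% and 9.75%. In LT-HSC against Lin+ cells, 43 were higher and 14 lower, beside 22.1% and 14.0%, and in progenitors against Lin+ cells, 40 were higher and 12 lower, beside 27.5% and 12%. These comparisons share arrays.

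Among the other lists, 2 that overlap the platelet lists also held higher genes. Of 32 measured genes known from long-term stem cells, 4 (12.5%) were higher, beside 0.643% of all measured genes, namely Vwf, Ehd3, Slamf1 and Clca3a1, and all but Clca3a1 are also on a platelet list. At the same 2-fold limit, 28 of the list were higher in LT-HSC than in ST-HSC, beside 6.37% of all measured genes, and 7 were higher and 12 lower in progenitors than in ST-HSC, beside 8.47% and 9.75%. The 4 genes are counted among the 28 and the 7 because the rule requires it. Procr, the protein C receptor of stem cells, stood at 4.44 in LT-HSC and -0.52 in progenitors, against 2.27 in ST-HSC and no signal well above background in Lin+ cells. Of 23 measured caveola, endothelial and matrix genes, 3 (13%) were higher (Cavin2, Ehd3 and Timp3), all of them named above.

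Red cell genes had a different order, with Lin+ cells at or near the top. Of 18 measured erythroid regulators and membrane proteins, 9 were higher and 1 lower by 2-fold or more in LT-HSC than in ST-HSC, and 12 were higher and 1 lower in progenitors than in ST-HSC. Against Lin+ cells, 12 were lower and 2 higher in progenitors, and 17 were lower and 1 higher in LT-HSC. Epor, the erythropoietin receptor gene, stood at 2.82 in LT-HSC and 4.84 in progenitors, against -0.68 in ST-HSC and 5.08 in Lin+ cells. Klf1, the erythroid Krüppel-like factor gene, stood at 0.29 in LT-HSC and 3.10 in progenitors, against -2.55 in ST-HSC and 3.55 in Lin+ cells. No measured gene of the haemoglobin, mast cell, granulocyte-monocyte progenitor, neutrophil, monocyte, T and NK cell, interferon, ribosomal protein, oxidative phosphorylation or Hox lists met the rule in either direction. At the shares of all measured genes, each of these lists would hold fewer than 1 in each direction.

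**Figure D2:**
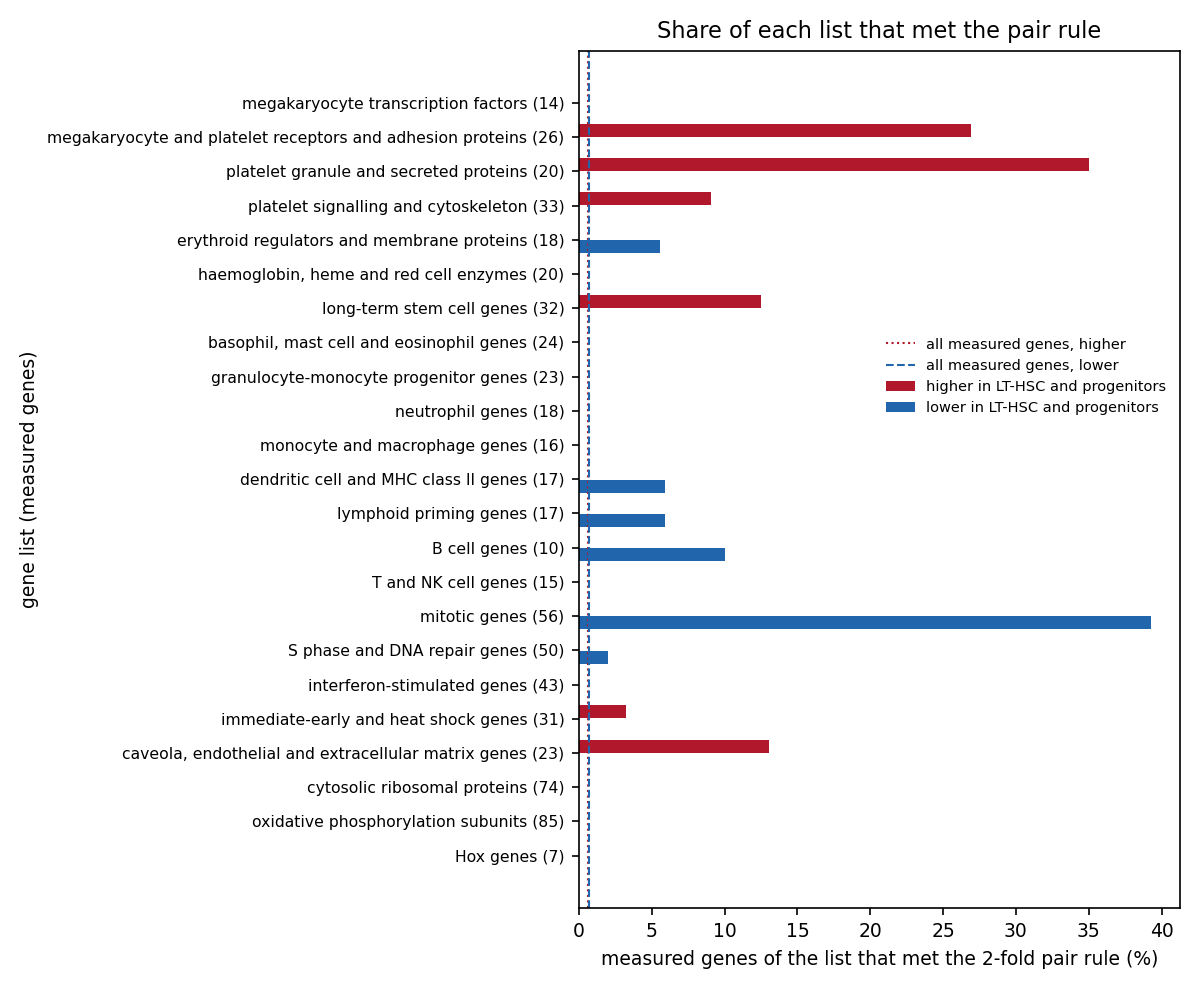
Share of the measured genes of each of 23 lists (vertical axis, number measured in brackets) that were at least 2-fold higher (red) or lower (blue) in both LT-HSC and progenitors than in both ST-HSC and Lin+. The dotted and dashed lines mark 0.643% and 0.694% of all measured genes, and the longest bars are the mitotic list at 39.3% lower and the platelet granule list at 35.0% higher.

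Outside the lists stood 56 of the 75 higher genes. A group of small X-linked genes of the Bex and Tceal family was among them, with large margins in Tceal3 and Tceal6. Tceal3 stood at 1.92 in LT-HSC and 1.77 in progenitors, against -1.04 in ST-HSC and -2.22 in Lin+ cells (margin 2.82 ± 0.22). Tceal6 stood at 2.22 in LT-HSC and 2.10 in progenitors, against -0.55 in ST-HSC and -1.84 in Lin+ cells (margin 2.65 ± 0.21). Bex4 stood at 3.95 in LT-HSC and 3.75 in progenitors, against 1.37 in ST-HSC and 2.31 in Lin+ cells (margin 1.44 ± 0.20). The first pair are close paralogs whose probes may bind each other's transcripts, so they may be 1 measurement. Of the measured members of each family, 2 of 6 Tceal genes and 1 of 5 Bex genes were higher, beside 0.643% of all measured genes.

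Further higher genes with all values above background came from unrelated families. Gdf3, a ligand of the TGF-β superfamily, stood at 2.11 in LT-HSC and 2.66 in progenitors, against 0.05 in ST-HSC and -0.09 in Lin+ cells (margin 2.05 ± 0.21), but its other measured probe did not meet the rule. Hif3a, a hypoxia-inducible factor gene, stood at 1.47 in LT-HSC and 1.12 in progenitors, against -0.91 in ST-HSC and -2.75 in Lin+ cells. Hspb1, a small heat shock protein gene, stood at 0.39 in LT-HSC and 2.01 in progenitors, against -2.01 in ST-HSC and -1.36 in Lin+ cells. It was the 1 higher gene among 31 measured immediate-early and heat shock genes, beside 0.643% of all measured genes. Scin, which encodes the actin-severing protein scinderin, stood at 0.80 in LT-HSC and 2.20 in progenitors, against -0.81 in ST-HSC and -1.25 in Lin+ cells. Aqp11, a water channel gene, stood at 1.09 in LT-HSC and 2.29 in progenitors, against -0.31 in ST-HSC and -1.13 in Lin+ cells, and its other measured probe also met the rule.

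Many of the higher genes were weak signals. In 45 of the 75, at least 1 value of ST-HSC or Lin+ was not well above background, in 26 both were not, and 30 had all 4 values above it. Among the largest such bounds, Smtnl1 stood at 0.96 in LT-HSC and -0.44 in progenitors, and the potassium channel gene Kcnj5 at -0.62 in LT-HSC and 1.27 in progenitors. Prl3d2, a placental prolactin family gene, stood at -0.65 in LT-HSC and -0.07 in progenitors. In ST-HSC and Lin+ cells these were at background. Of 1070 olfactory receptor genes on the array, 34 were measured and 3 were higher, beside 75 of all 20284 named genes. The 3 counted as measured only through LT-HSC and progenitors, so their share of the 34 is not set against the 0.643%. In ST-HSC and Lin+ cells these 3 were not well above background.

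Some of the higher genes lay near each other on a chromosome, within a window of 10 genes. How often other genes form such pairs was not counted. Besides Ppbp and Pf4, the pairs with 0 named genes between them were Syn3 with Timp3 on chromosome 10 and Clca3a1 with Clca3a2 on chromosome 3. Hspb1 and Upk3bl on chromosome 5 had 5 named genes between them, and Bex4 and Tceal3 on the X chromosome had 8. Clca3a1 and Clca3a2 are paralogs that may share probe signal.

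The higher genes differed within each pair, which the rule did not fix. LT-HSC lay above progenitors in 45 and below in 30, by at least 2-fold in 15 each way, and within 2 spot errors in 27. The median difference of LT-HSC minus progenitors was 0.14 in the 75 genes and -0.19 in all measured genes. Pf4 was 1.62 lower in LT-HSC than in progenitors, and Slamf1 was 2.91 higher. The widest gap was in Cyp26b1, which encodes a retinoic acid-degrading enzyme and was picked out after its values were seen. It stood at 3.01 in LT-HSC and -2.36 in progenitors, and was well above background in neither ST-HSC nor Lin+ cells. Where both ST-HSC and Lin+ were measured, ST-HSC lay above Lin+ in 21 of 30 higher genes, by at least 2-fold in 15, and the median of ST-HSC minus Lin+ was 0.93, beside 0.28 in all measured genes.

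**Figure D3:**
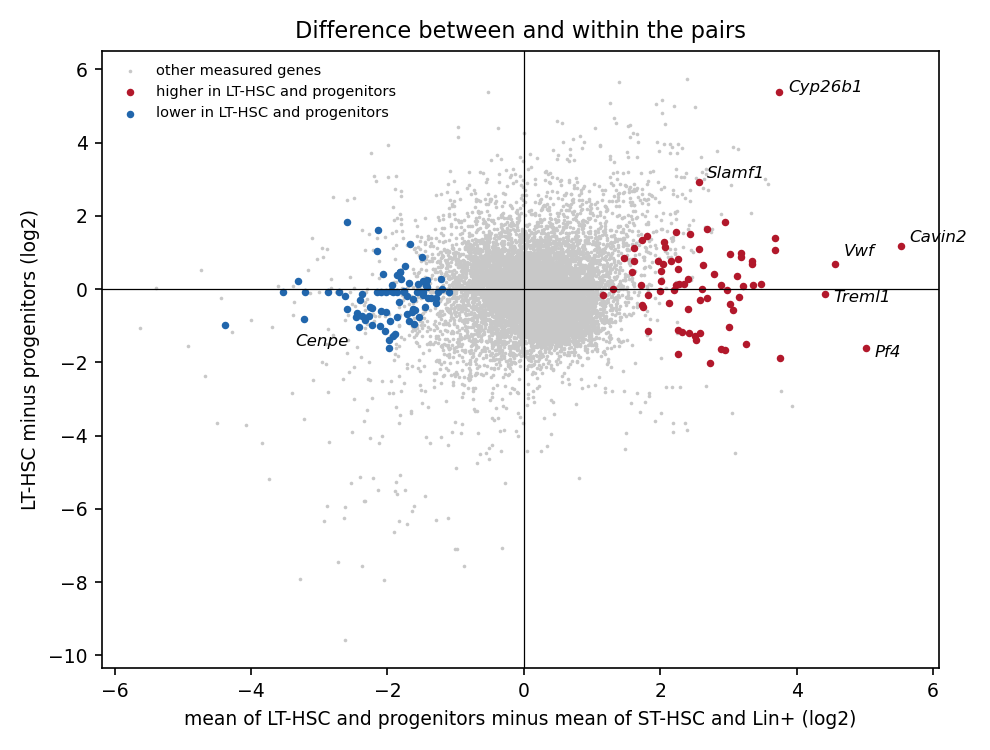
For each of 11673 measured genes, the mean of LT-HSC and progenitors minus the mean of ST-HSC and Lin+ (horizontal axis, log2) against LT-HSC minus progenitors (vertical axis, log2), with the 75 higher genes in red and the 81 lower genes in blue. Red points spread widely above and below 0 on the vertical axis, from Cyp26b1 at the top to genes that are higher in progenitors, such as Pf4, while blue points gather at or just below 0.

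Genes of cell division were prominent among those lower in LT-HSC and progenitors. Of 56 measured mitotic genes, 22 (39.3%) were lower and 0 were higher, beside 0.694% and 0.643% of all measured genes. The median pair difference of the 56 was -1.59, beside 0.20 for all measured genes. Their products were motors of the spindle, kinetochore proteins, condensin subunits and proteins of cytokinesis.

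**Figure D4:**
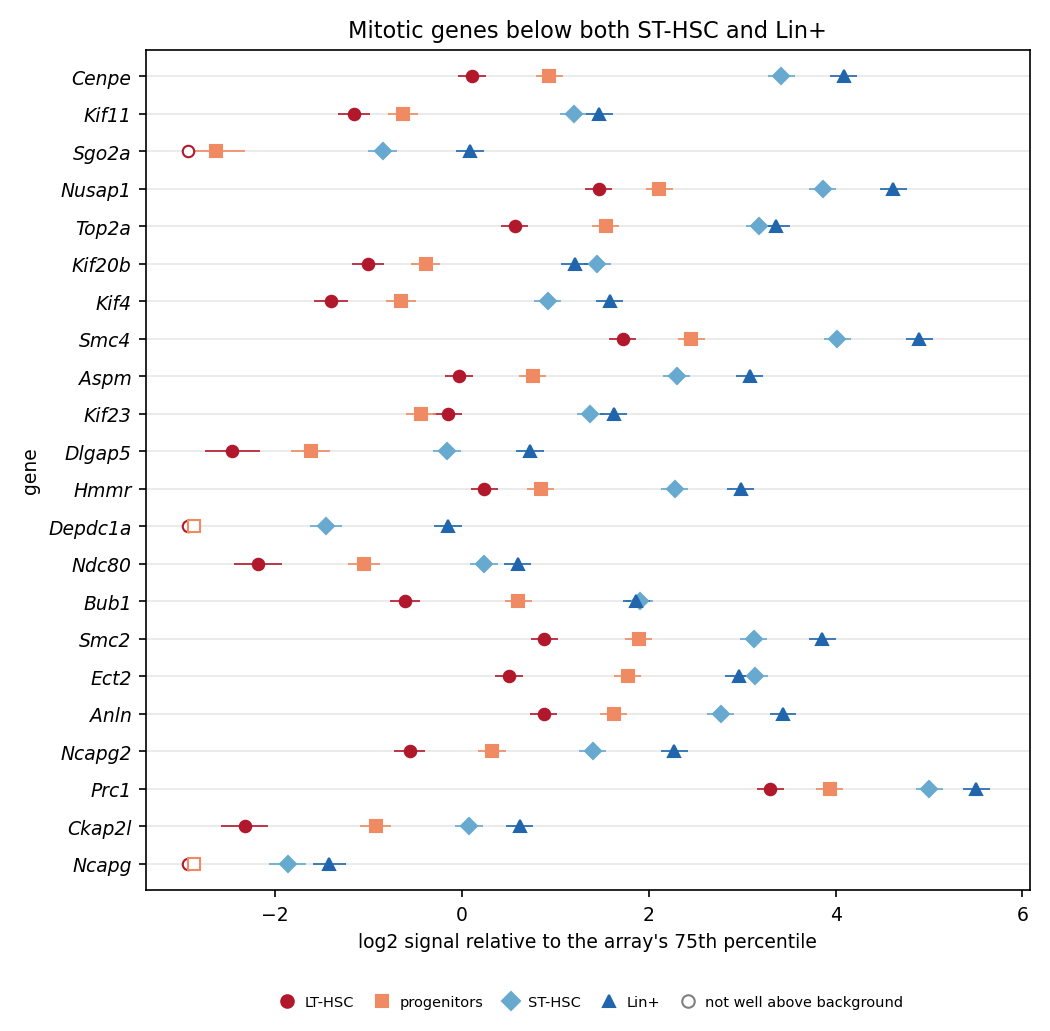
Log2 signal relative to the array's 75th percentile (horizontal axis) of the 22 mitotic genes lower in LT-HSC and progenitors, ordered by margin. Bars are the spot error of 1 array, and open symbols, drawn without bars, were not well above background. Where all 4 symbols are filled, LT-HSC is lowest except for Kif23, and the gap to the diamond or triangle ranges from 1.00 for Ckap2l to 2.48 for Cenpe.

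Cenpe, the kinesin that moves chromosomes from the kinetochore, stood at 0.11 in LT-HSC and 0.94 in progenitors, against 3.42 in ST-HSC and 4.09 in Lin+ cells. Its margin was 2.48 ± 0.21, so both of the first were at least 5.60-fold lower than both of the others. Kif11, the motor that pushes the spindle poles apart, stood at -1.16 in LT-HSC and -0.63 in progenitors, against 1.20 in ST-HSC and 1.47 in Lin+ cells (margin 1.83 ± 0.22). Kif20b, Kif4 and Kif23, which act in the central spindle and cytokinesis, had margins of 1.59, 1.57 and 1.53. Of 32 measured kinesin genes (Kif symbols and Cenpe), 6 were lower by the rule, beside 0.694% of all measured genes. Apart from the 5 above, the other was Kif5b, a transport motor.

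Spindle assembly and chromosome structure genes were also among them. Nusap1, a microtubule-bundling protein of the spindle, stood at 1.46 in LT-HSC and 2.11 in progenitors, against 3.86 in ST-HSC and 4.62 in Lin+ cells (margin 1.75 ± 0.20). Top2a, the topoisomerase that untangles sister chromatids, stood at 0.56 in LT-HSC and 1.54 in progenitors, against 3.18 in ST-HSC and 3.36 in Lin+ cells (margin 1.64 ± 0.20). Smc4, a condensin core subunit, stood at 1.72 in LT-HSC and 2.45 in progenitors, against 4.02 in ST-HSC and 4.90 in Lin+ cells (margin 1.57 ± 0.20). Of 6 measured genes of the Smc family, 4 were lower, beside 0.694% of all measured genes: Smc4, Smc2, Smc3 and Smc6, which serve condensin, cohesin and DNA repair complexes. Aspm, a spindle pole protein, stood at -0.04 in LT-HSC and 0.76 in progenitors, against 2.30 in ST-HSC and 3.08 in Lin+ cells (margin 1.54). Dlgap5, another spindle protein, stood at -2.46 in LT-HSC and -1.62 in progenitors, against -0.16 in ST-HSC and 0.73 in Lin+ cells, though its other measured probe did not meet the rule. Sgo2a, the guardian of centromeric cohesion, was not well above background in LT-HSC and stood at -2.64 in progenitors, against -0.85 in ST-HSC and 0.09 in Lin+ cells. With normexp the smallest differences of Dlgap5 and Sgo2a were 0.65 and 0.64, short of the rule.

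Related genes outside the mitotic list were lower as well. Esco2, which acetylates cohesin, was not well above background in LT-HSC or progenitors, against -1.01 in ST-HSC and 0.56 in Lin+ cells. With normexp its smallest difference was 0.45, short of the rule. Ckap5, a microtubule polymerase, stood at 2.37 in LT-HSC and 1.92 in progenitors, against 4.03 in ST-HSC and 3.90 in Lin+ cells (margin 1.52 ± 0.20). Tpr, a nuclear pore protein, stood at 0.02 in LT-HSC and -0.43 in progenitors, against 1.59 in ST-HSC and 1.62 in Lin+ cells, and its other measured probe also met the rule. Casp8ap2 stood at -1.24 in LT-HSC and -1.39 in progenitors, against 0.24 in ST-HSC and 0.50 in Lin+ cells, again with its other probe in accord. Of all 10 lower genes with another measured probe, 5 had one that met the rule. Among the higher genes this held for 3 of 7. Trim59, the neighbour of Smc4 on chromosome 3, stood at 2.60 in LT-HSC and 2.66 in progenitors, against 4.15 in ST-HSC and 4.99 in Lin+ cells.

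Several classical cell cycle regulators lay outside the rule, with progenitors less than 2-fold from ST-HSC. Cdk1, the kinase that starts mitosis, stood at 1.35 in LT-HSC and 3.20 in progenitors, against 3.03 in ST-HSC and 3.61 in Lin+ cells. Ccnb1, its cyclin, stood at 3.05 in LT-HSC and 4.87 in progenitors, against 4.89 in ST-HSC and 5.20 in Lin+ cells. Mki67, the proliferation antigen gene, stood at 1.51 in LT-HSC and 3.99 in progenitors, against 4.89 in ST-HSC and 6.78 in Lin+ cells. Over the 56 mitotic genes, 51 were at least 2-fold lower in LT-HSC than in ST-HSC and 0 higher, with a median of -1.84, beside 5.52% and 6.37% of all measured genes. In progenitors against ST-HSC 24 were lower and 0 higher, beside 9.75% and 8.47%. The median there was -0.82, beside 0.19 for all measured genes. The 22 mitotic genes of the rule are counted among the 51 and the 24 because the rule requires it.

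Genes of DNA replication and repair were lower by the rule less often than mitotic genes. Of 50 measured S phase and DNA repair genes, 1 (2%) was lower, beside 0.694% of all measured genes. It was the repair gene Brca2, which stood at -0.21 in LT-HSC and 0.74 in progenitors, against 1.87 in ST-HSC and 1.88 in Lin+ cells (margin 1.14 ± 0.21). In LT-HSC 32 of the 50 were at least 2-fold lower than in ST-HSC and 0 higher, beside 5.52% and 6.37% of all measured genes. In progenitors 3 were lower and 3 higher, near the 9.75% and 8.47% of all measured genes. The replication helicase gene Mcm5 stood at 4.92 in LT-HSC and 6.86 in progenitors, against 6.06 in ST-HSC and 6.17 in Lin+ cells.

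Few genes of mature cell types were among the lower genes. Slc4a1, the red cell anion exchanger gene, did not meet the rule: it was not well above background in LT-HSC and stood at -0.57 in progenitors, against -3.06 in ST-HSC and 8.92 in Lin+ cells. Rag2, a subunit of the antigen receptor recombinase, stood at -2.50 in LT-HSC and was not well above background in progenitors, against -0.89 in ST-HSC and -0.77 in Lin+ cells. It fell short of the rule with normexp (0.78) and with averaged probes (0.58). Itgax, the integrin CD11c of dendritic cells, stood at -2.61 in LT-HSC and -1.84 in progenitors, against -0.39 in ST-HSC and 0.87 in Lin+ cells. Rag2 and Itgax were each the 1 lower gene of their lists, beside 0.694% of all measured genes. Rag2 is on both the lymphoid priming list (17 measured) and the B cell list (10 measured), and Itgax on the dendritic cell list (17 measured).

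The lower genes also varied within the pairs. LT-HSC lay below progenitors in 39 of the 54 genes with all 4 values above background, with a median of -0.51, and by at least 2-fold in 6, against 3 in which it lay at least 2-fold above. ST-HSC lay below Lin+ cells in 61 of 81, with a median of -0.36, beside 0.28 in all measured genes. Margins had a median of 1.30 (range 1.00 to 2.67) in the lower genes and 1.55 (range 1.01 to 4.17) in the higher genes. A gap of at least 4-fold was found in 3 lower genes and 26 higher genes, and margins exceeded the threshold by more than 2 spot errors in 18 lower and 30 higher genes.

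At the threshold, Ncapg, Gpat3 and Ckap2l had margins of 1.00 just inside the rule for lower genes, and Atp8a2, Parpbp and Smchd1 had 0.99 just outside it. For higher genes, Rhoj, Dsc3 and Gp9 had 1.01 just inside, and Cldnd2, Nkx3-2 and Vasn had 0.99, 0.98 and 0.97 just outside. Counts of both kinds depend on where this line falls.

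The promoters of the groups differed in motifs, which the rule did not use. A RefSeq promoter window was matched for 58 of the 75 higher genes, 62 of the 81 lower genes and 9408 of all measured genes. A CHR motif was found in 30 of the 62 lower genes (48.4%), in 8 of the 58 higher genes (13.8%), and in 14.2% of all measured genes and 19.4% of all 27025 promoters. A CCAAT motif was found in 62.9% of the lower genes, 27.6% of the higher genes, 39.1% of all measured genes and 37.9% of all promoters. Most of the CHR motifs were in mitotic genes, where 17 of 20 (85.0%) held one, and 20 of 27 mitotic genes with other patterns (74.1%) held one too. Among lower genes outside the mitotic list, 13 of 42 (31.0%) held one. Kif11 and Kif4 above have 1 CHR match each, and Top2a has 4.

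A GATA motif was found in 15 of the 58 higher genes (25.9%), in 7 of the 62 lower genes (11.3%), and in 1006 of 9408 measured genes and 19.0% of all promoters. Of the higher genes, 4 of 13 on the platelet lists (30.8%) and 11 of the other 45 (24.4%) held a GATA motif. It was found in 16.9% of 59 measured platelet-list genes outside the rule. An ETS motif was found in 11 of the 58 higher genes (19.0%), in 21 of the 62 lower genes (33.9%), and in 29.3% of all measured genes and 24.1% of all promoters. Within the higher genes it was found in 7 of 13 on the platelet lists (53.8%) and in 4 of the other 45 (8.89%), and 20.3% of 59 measured platelet-list genes outside the rule held it. Both motifs occurred in Pf4 and Gp5 as shown above, and neither occurred in Treml1. The higher genes had fewer CpG dinucleotides, a median of 6.5 per window, beside 20 in both the lower genes and all measured genes. A match of letters in these windows is not a measured binding site.

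The genes also differed in genomic span, the distance from a gene's start to its end in the reference annotation. With measured genes divided into 5 equal groups from the shortest to the longest, the higher genes numbered 24, 11, 8, 15 and 17, and the lower genes 9, 6, 9, 41 and 16. Span moved with the values of all measured genes as well. The median of progenitors minus ST-HSC went down along the groups, with 0.41 in the shortest and -0.15 in the longest, whereas LT-HSC minus ST-HSC varied between -0.07 and 0.02. When each array was corrected for this trend, 57 genes were higher and 86 lower, with 13 platelet-list genes among the higher and 23 mitotic genes among the lower. The correction kept 53 of the 75 higher genes and 67 of the 81 lower genes as reported. What underlies the trend was not tested.

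**Figure D5:**
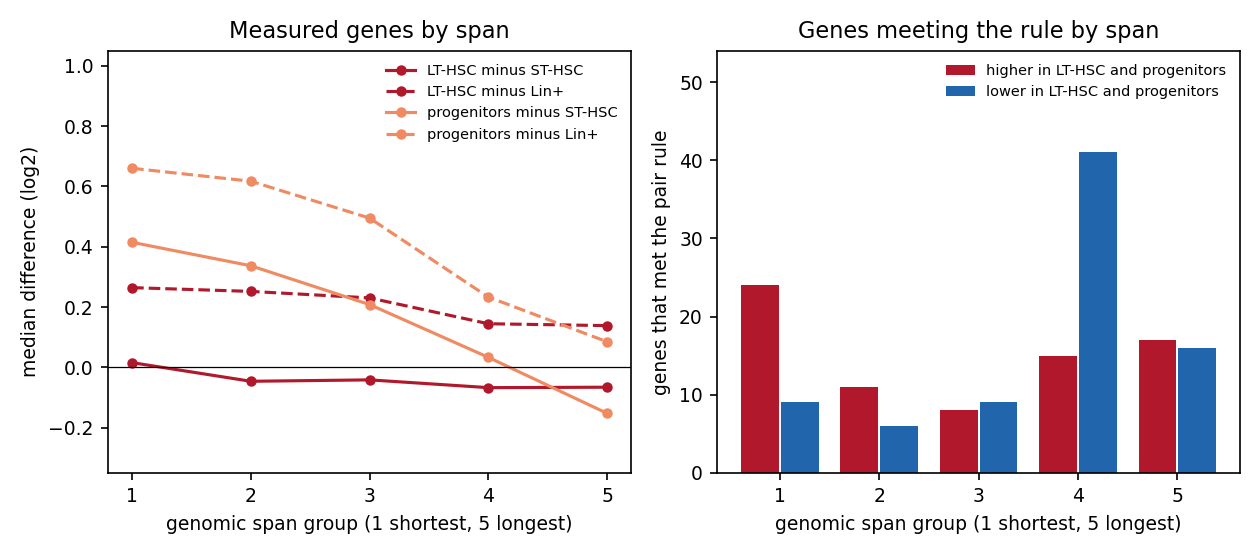
Left, median log2 difference of measured genes in 5 groups of genomic span, for LT-HSC (red) and progenitors (orange) minus ST-HSC (solid) and minus Lin+ (dashed). Right, number of higher (red) and lower (blue) genes in each span group, where 41 of the 81 lower genes fall in the fourth group and 24 of the 75 higher genes in the shortest.

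Other pairings of the same arrays gave different numbers. When the stem cell fractions LT-HSC and ST-HSC were set against progenitors and Lin+ cells, 452 genes were higher and 368 lower of 11913 measured. When progenitors and ST-HSC were set against LT-HSC and Lin+ cells, 43 were higher and 108 lower of 11628 measured. These pairings use the same 4 arrays, so the counts are given side by side only. Among 7899 measured probes with no RefSeq name, 46 (0.582%) were higher in LT-HSC and progenitors and 65 (0.823%) were lower.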

How the data were processed

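Gene expression of 4 sorted marrow fractions was read on 1 Agilent array each. The deposited scanner files hold linear spot intensity, which per the file headers was background-subtracted and spatially detrended but not scaled between arrays. Software was Agilent Feature Extraction 10.7.1.1, per the submitters' processing notes. The authors' deposited value table holds a linear ratio. Within 1%, it is that intensity over a constant of each array, for 100% of 55246 probes printed once. Its column medians were 0.0619 (LT-HSC), 0.0704 (progenitors), 0.0630 (ST-HSC) and 0.0738 (Lin+). This settles its scale, centring and direction.

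Control spots and spots with outlier flags were left out, spots of a probe were averaged as log2, and each array's 75th percentile was subtracted. Of 55681 probes, 3 were dropped. No spot was saturated. Dim values (not well above background) were raised, if below it, to a floor, the lowest well-above-background value of the array, which was -2.94 in LT-HSC, -2.87 in progenitors, -3.39 in ST-HSC and -3.47 in Lin+ cells, and such differences are bounds, written as at least N-fold. Among 308 negative control spots, 4 to 7 per array passed as above background. RefSeq accessions (GRCm38.p6) named 26762 probes (48.1%). The array design uses another build, so only names, gene order, genomic spans and promoter windows were taken from the tables. The brightest probe stood for a gene.

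The median spot error was 0.15 per value, and with 4 arrays the precision beyond that is unknown. The rule was checked on simulated data. The genes, the 23 lists and the pairing were chosen with earlier results of these data known. Named genes were Pf4, Treml1, Kit, Cd34 and Ly6a, the 15 largest margins with both low values above background and the 5 largest bounds per direction, up to 6 per list, measured genes of the megakaryocyte and platelet lists, those at the threshold, and neighbours. Some of these genes are not reported here, and genes named beyond this rule, such as Procr, Epor, Cdk1, Mcm5, Slc4a1 and Cyp26b1, were chosen after their values were seen. Alternatives varied the scaling, background, probe choice, fold and span correction, and left out each array. Normexp correction used the median spot signal. Tools were Python 3.11.15, numpy 2.4.6, pandas 2.3.3 and limma 3.58.1 in R 4.3.3.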

Additional observations from a re-analysis of the deposited data

How the results depend on the processing

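No paired analysis was possible because each fraction had 1 array. Of 18 alternatives, 8 recomputed the values (5 scalings, normexp, averaged probes and span correction). Over 55 genes followed singly these gave 440 values, of which 394 met the rule and 0 had the sign turned. In all 8, 33 of these genes met it. The 55 were the genes with the largest margins in each direction and the platelet-list and mitotic genes of the rule. Other genes described above were not followed singly, among them Gdf3, Hif3a, Hspb1, Scin, Aqp11, Bex4, Ckap5, Casp8ap2, Trim59, Brca2 and Itgax. Leaving out an array, the 1.5-fold limit and dropping the filter cannot remove a gene. Of the 55, Cavin2, Vwf, Pf4, Treml1, Tceal3, Tceal6, Clu and Cenpe met the rule in all 18. The counts moved more. At 1.5-fold 181 genes were higher and 211 lower. At 4-fold 26 were higher and 3 lower, with 11 listed, 9 platelet and 1 mitotic genes among them. Without a background filter or floor 170 were higher and 133 lower, and with normexp 35 and 32. Normexp kept 35 of the 75 higher genes and 26 of the 81 lower genes as reported. Its calls held 12 platelet genes among the higher and 16 mitotic genes among the lower. With only genes above background on all arrays 30 were higher, 11 of them platelet genes, and 54 lower. Scaling to the spike-in controls gave 40 higher (10 platelet genes) and 226 lower, against 75 and 81 as reported, and with the percentile of detected probes 33.1% were higher, against 48.1% as reported. The median pair difference of all genes was -0.25 with spike-ins, against 0.20. Leaving out 1 array, which relaxes the rule, gave 236 to 1686 higher and 263 to 1390 lower genes, 93 to 312 listed, 22 to 37 platelet and 22 to 50 mitotic. Counts were 548 higher and 365 lower without LT-HSC, 785 and 410 without progenitors, 1686 and 1390 without ST-HSC, and 236 and 263 without Lin+. The cause of other shifts was not tested. Weak signal limits the 45 higher and 27 lower genes with a value not well above background.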
